A study of Mus musculus with 15 samples.

Results

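The genes described here make cholesterol and fatty acids, steer that synthesis, or move the products into and out of cells. They are 33 genes taken from a list of names, out of 24650 genes that had a value above 0 in any library. The list was chosen with earlier results of these data known. They fall into 17 enzymes of sterol synthesis, 4 regulators, 4 genes of lipid uptake, transfer or efflux, and 8 enzymes of fatty acid synthesis and desaturation. RNA-seq was made from brain tissue of C57BL/6 mice, with 3 libraries in each of 5 groups. The first group was untreated tumors of GL261, a line of mouse glioma cells, given 0 µg, and 3 further groups were GL261 tumors treated with B20.4.1.1, an antibody against VEGF-A, at 50, 100 or 200 µg per dose. The last group was healthy brain with no tumor. Dosing was started on day 10 after implantation and repeated every 3 days, and the mice were perfused with saline before collection. Each library held whole tissue, so tumor cells and host cells were measured together, and fewer cells of a type and less RNA per cell cannot be told apart. The antibody acts on VEGF-A protein and no transcript level could check the labelled doses. Groups follow the titles, and in all 4 tumor groups the agent tag of replicate 3 names another treatment than its title. It names 50 µg for the untreated group and 100 µg for the 50 µg group. For the 100 µg group it names 200 µg, and for the 200 µg group no treatment.

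Cholesterol is built from acetyl-CoA by way of mevalonate, isoprenoid units, squalene and lanosterol. The precursor of the Srebf2 product, a transcription activator of this pathway, is escorted from the endoplasmic reticulum by Scap when sterols are scarce and is held there by Insig1 when they are plentiful. The Srebf1 product acts more on fatty acid genes. The brain makes its own cholesterol, because lipoproteins of the blood hardly cross its barrier, and much of it goes into myelin, the membrane wrapped by oligodendrocytes.

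Promoter windows of RefSeq (build GRCm38.p6, 250 bases before to 50 bases after a gene's start) were at hand for 24 of the 33 genes, in 30 windows. They were searched on both strands for TCACNCCAC, a form of the sterol regulatory element bound by the Srebf products, for CCAAT, the box bound by NF-Y, and for GGGCGG, the box bound by Sp1. The sterol element was in 1 of the 30 member windows, that of Hmgcs1, and in 1.24% of all 32851 windows. CCAAT was in 20 of 30 member windows, or 66.7%, against 37.4% of all windows, and GGGCGG was in 23 of 30, or 76.7%, against 35.7%. The 250 bases before the start are shown for Hmgcs1, whose window alone held the sterol element, and, chosen after their values were seen, for Mvd, whose 200 µg value is described further on, and Ebp, which rose most in tumors among the sterol enzymes. Each is written 5′ to 3′ on the gene's strand, with every match in capitals. In the Hmgcs1 stretch (chr13:119690101-119690350, plus strand) the sterol element reads TCACCCCAC and stands with 3 NF-Y and 2 Sp1 boxes, while the Mvd stretch (chr8:122443423-122443672, minus strand) and the Ebp stretch (chrX:8193513-8193762, minus strand) hold 2 NF-Y boxes and 1 Sp1 box each.
Hmgcs1: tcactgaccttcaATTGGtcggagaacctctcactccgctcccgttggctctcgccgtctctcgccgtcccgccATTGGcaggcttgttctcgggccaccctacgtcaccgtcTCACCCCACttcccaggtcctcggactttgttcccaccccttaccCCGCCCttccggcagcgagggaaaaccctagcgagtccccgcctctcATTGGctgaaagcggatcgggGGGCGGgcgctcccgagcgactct
Mvd: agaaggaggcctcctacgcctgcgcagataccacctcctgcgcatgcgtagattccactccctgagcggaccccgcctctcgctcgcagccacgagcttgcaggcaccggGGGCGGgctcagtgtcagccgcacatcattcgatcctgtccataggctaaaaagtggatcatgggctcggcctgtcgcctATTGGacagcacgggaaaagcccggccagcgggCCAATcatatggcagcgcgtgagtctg
Ebp: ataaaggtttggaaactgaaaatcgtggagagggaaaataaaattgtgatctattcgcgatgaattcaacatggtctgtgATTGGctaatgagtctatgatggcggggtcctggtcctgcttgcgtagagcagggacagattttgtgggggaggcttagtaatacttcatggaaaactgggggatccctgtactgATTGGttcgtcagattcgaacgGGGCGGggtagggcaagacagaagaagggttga

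The labelled tissues matched their defining markers. The summed level of 6 neuron markers was 10.1 to 17.8 FPKM (fragments per kilobase, scaled to the size of the library) in untreated tumors, against 1761 to 2585 FPKM in healthy brain, and that of 5 dividing-cell markers was 157 to 274 FPKM against 0.685 to 2.23 FPKM. The summed level of 6 macrophage markers was 421 to 679 FPKM in untreated tumors and 6.48 to 8.99 FPKM in healthy brain. Depth was not given as counts. A transcript at 1 FPKM had a mean base coverage of 6.94 to 13.2 reads in tumor libraries and 6.10 to 22.2 in brain libraries. Of the tumor libraries, 50 µg replicate 3 stood apart: 6.01% of its coding genes were listed in pieces, against 0.233 to 1.21% in the other tumor libraries, and it had the lowest value of its group for 25 of the 33 genes. Replicate 3 at 100 µg lay with the 200 µg libraries on the first principal component of the tumor libraries (42.6, against 41.5 to 50.9 at 200 µg and −17.1 and −18.2 in the other 100 µg libraries), and it had the highest value of its group for 22 of the 33 genes. Its agent tag names 200 µg. For neither count of lowest or highest values was the share over all genes taken. The tag of 200 µg replicate 3 names no treatment, yet that library lay at 41.5, with the others of its title. The brain libraries varied too, with 3.87%, 1.96% and 0.514% of coding genes in pieces against 0.728 to 0.900% in untreated tumors, and 525 short transcripts were set aside in brain replicate 1 against 20 and 29 in the other brain libraries. The part of these differences in the lipid gene values was not tested.

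**Figure D1:**
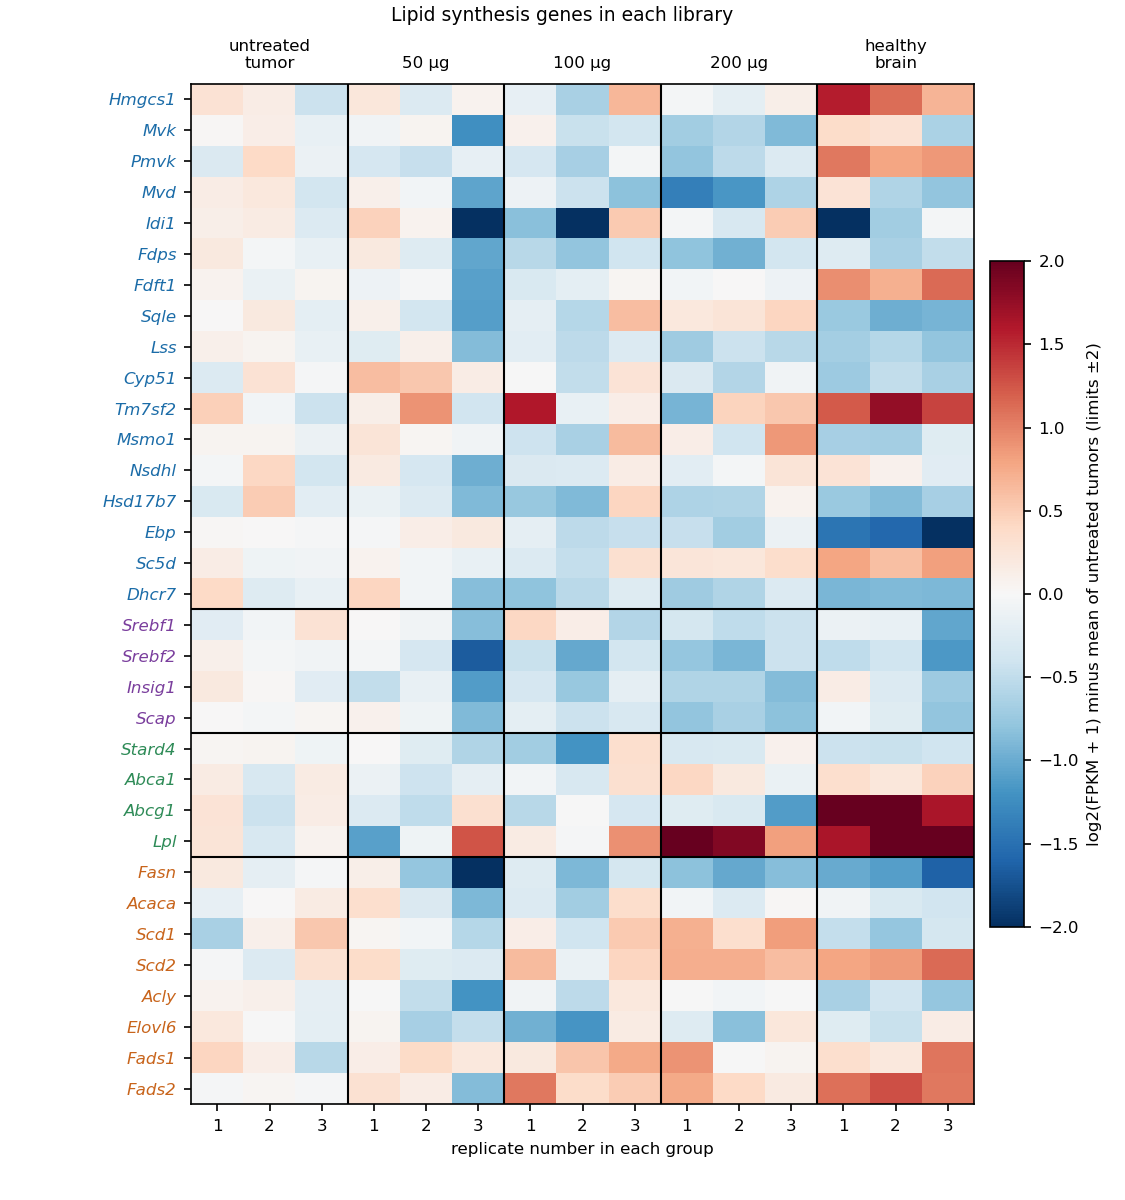
Heat map of the 33 genes (rows, grouped as sterol synthesis, regulators, uptake, transfer or efflux, and fatty acid synthesis) in the 15 libraries (columns), with color for log2(FPKM + 1) minus the mean of the untreated tumors. Healthy brain is high for Hmgcs1, Tm7sf2, Abcg1, Lpl and Fads2, and 50 µg replicate 3 is low for most sterol enzymes and for all 4 regulators.

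All 33 genes had a mean of at least 1 FPKM in the libraries of each comparison and were tested, by limma with Benjamini-Hochberg adjustment over all genes tested, and those with an adjusted p under 0.05 count as called. In untreated tumors against healthy brain 20 of the 33 were called, 11 higher and 9 lower. That is 60.6% of the list, while 60.7% of all 16340 genes tested were called (32.7% higher and 28.0% lower), so the list as a whole was called at the background rate. None of the 33 was called at 50, 100 or 200 µg against untreated tumor, in the mean of the 3 doses against untreated tumor, in a test for any difference among the doses, or in a linear trend with dose. Over all 14653 genes tested the share called was 0% at 50 µg, 0.0887% at 100 µg, 2.83% at 200 µg, 0.0751% for the mean of the doses, 0.171% among the doses and 7.53% for the trend. At an unadjusted p under 0.05 the limma fits held 1, 0, 10, 5, 4 and 10 of the 33 in these 6 comparisons, against 4.01%, 8.96%, 23.0%, 12.1%, 15.6% and 26.5% of all genes.

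Of the 17 sterol enzymes, 7 rose and 5 fell in untreated tumors against healthy brain, or 41.2% and 29.4%, beside 32.7% and 28.0% of all genes tested. Of the 7 early enzymes 3 fell and none rose. The 3 were Hmgcs1, which makes the substrate of the committed step, Pmvk, a kinase of phosphorylated mevalonate, and Fdft1, which joins isoprenoids into squalene. Mvk, Mvd, Idi1 and Fdps were not called. Of the 10 later enzymes that turn squalene into cholesterol, 7 rose, namely Sqle, Lss, Cyp51, Msmo1, Hsd17b7, Ebp and Dhcr7, while Tm7sf2 and Sc5d fell and Nsdhl was not called. The difference between early and late enzymes was not tested. With a plain sum of FPKM, one of the alternatives run, only Ebp and Dhcr7 of the 7 later rises were still called, while the 3 early falls were. The median log2 fold change of the 17 was 0.47, beside 0.14 for all genes tested.

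Ebp, the isomerase that shifts a double bond of the sterol ring, had 21.0, 20.7 and 20.3 FPKM in untreated tumors, against 6.89, 6.29 and 3.85 FPKM in healthy brain. The groups lay far apart, with a mean ratio of 3.64 and a log2 fold change of 1.73 ± 0.22 (SE; limma, adjusted p = 0.000719). Dhcr7, a late reductase of cholesterol synthesis, had 16.9, 10.4 and 11.2 FPKM in untreated tumors and 6.23, 6.39 and 6.26 FPKM in healthy brain. Every tumor value was above every brain value, and the log2 fold change was 0.90 ± 0.21 (SE; limma, adjusted p = 0.0105).

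Hmgcs1 had 23.1, 20.8 and 13.6 FPKM in untreated tumors and 57.7, 41.8 and 30.6 FPKM in healthy brain, and the groups did not overlap although each spread widely. Its log2 fold change was −1.12 ± 0.30 (SE; limma, adjusted p = 0.0180), and the call was lost without brain replicate 2 or without tumor replicate 3. Tm7sf2, a sterol reductase, had 5.39, 3.42 and 2.41 FPKM in untreated tumors and 9.69, 14.5 and 10.7 FPKM in healthy brain, a log2 fold change of −1.44 ± 0.28 (SE; limma, adjusted p = 0.00477). In 7 of the 15 libraries its value came from transcripts that also covered the neighbor Vps51, so its level is uncertain. Fdft1 is uncertain too, since in 14 libraries 34.7 to 67.6% of its value came from transcripts joined to the neighbor Ctsb. Sqle is uncertain as well, since in 13 libraries 18.2 to 100% of its value (median 100%) came from transcripts joined to Washc5, and so is Cyp51, with 13.9 to 65.4% joined to Akap9 in 8 libraries.

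Pmvk averaged 11.6 ± 3.2 FPKM in untreated tumors and 22.1 ± 2.2 FPKM in healthy brain, and Fdft1 averaged 17.1 ± 1.4 and 33.6 ± 5.0 FPKM (SD, n = 3 each). Sqle, squalene epoxidase, averaged 25.7 ± 3.6 FPKM in untreated tumors and 13.4 ± 1.2 FPKM in healthy brain, and Lss, which closes the sterol rings, averaged 7.43 ± 0.78 and 4.27 ± 0.41 FPKM (SD, n = 3 each). The rises of Cyp51, Msmo1 and Hsd17b7 were 0.62, 0.52 and 0.76 on the log2 scale, and the fall of Sc5d was −0.74. Of the enzymes not called, Mvk, Nsdhl, Mvd and Fdps had log2 values of −0.01, −0.04, 0.37 and 0.47. Idi1, which interconverts the isoprenoid building blocks, had 15.6, 16.2 and 11.8 FPKM in untreated tumors and 0, 8.53 and 13.9 FPKM in healthy brain. A listed 0 can be a failed assembly, and its fold change of 1.56 ± 0.98 (SE) was not called (limma, adjusted p = 0.212).

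**Figure D2:**
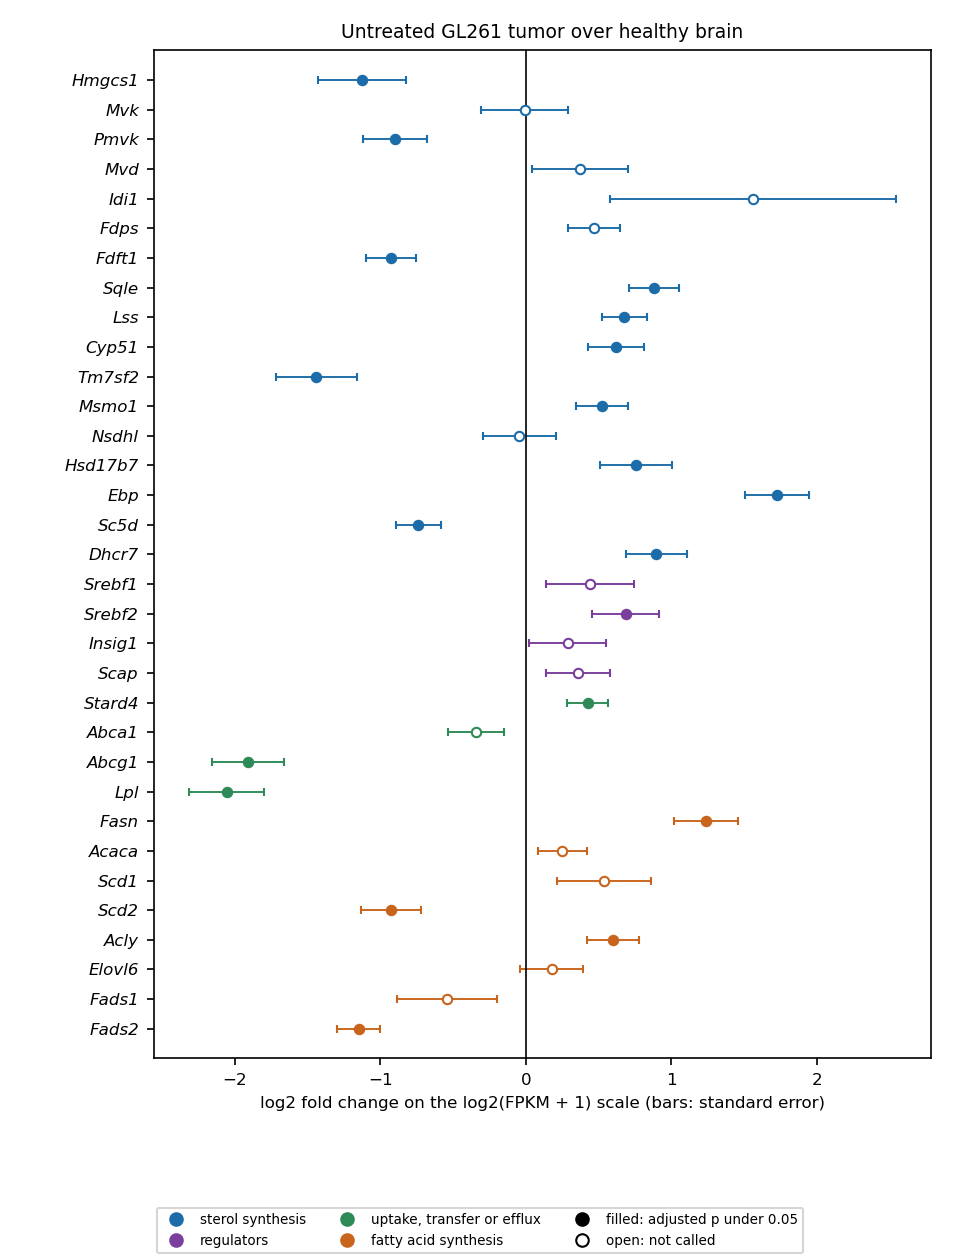
Log2 fold change of each gene in untreated GL261 tumor over healthy brain (x axis, log2(FPKM + 1) scale, bars are standard errors from limma, 3 libraries in each group), in pathway order down the page and colored by role. Filled points passed an adjusted p of 0.05: 11 lie to the right of 0 and 9 to the left.

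Scaling bore on the rises more than on the falls. Median-of-ratios scaling shifted the median of all genes by −0.22 on the log2 scale in this comparison. The split of calls among the 33 was then 5 higher and 9 lower, against 11 higher and 9 lower without it. The 5 still called higher were Sqle, Lss, Ebp, Dhcr7 and Fasn, and the 9 called lower were the same genes. Of the 20 calls, those of Pmvk, Fdft1, Tm7sf2, Ebp, Dhcr7, Lpl and Scd2 held under every alternative run, 16 for Lpl and 17 for the other 6, while those of Msmo1, Hsd17b7, Srebf2, Stard4 and Acly were lost in 9 to 11 of 17 and that of Cyp51 in 7. Each of these 6 calls was lost on leaving out any of 4 or 5 of the 6 libraries, while Fdps was called without brain replicate 1 and Scd1 without tumor replicate 1.

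Within treated tumors the sterol enzymes had no call against untreated tumors. At 200 µg, 12 of the 17 had log2 fold changes below 0, with a median of −0.31 beside 0.04 for all genes tested. At an unadjusted p under 0.05, 6 of the 17 were lower and none was higher, against 9.87% lower and 13.2% higher among all genes tested. These 6 were Mvk, Pmvk, Mvd, Fdps, Lss and Ebp. The median was −0.34 at 50 µg, beside −0.07 for all genes tested, and it rested on replicate 3, without which it was −0.01, beside −0.03. At 100 µg it was −0.24, beside −0.01 for all genes tested, and without replicate 3 it was −0.37, beside −0.04. These comparisons share the untreated libraries.

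Mvd, the decarboxylase that turns phosphorylated mevalonate into an isoprenoid unit, had the smallest p of the enzymes at 200 µg. Its levels were 18.0, 18.9 and 12.3 FPKM in untreated tumors, 17.4, 15.4 and 7.20 FPKM at 50 µg, 14.99, 11.7 and 8.72 FPKM at 100 µg, and 5.66, 6.68 and 10.1 FPKM at 200 µg. Every 200 µg value was below every untreated value, and both middle doses overlapped the untreated tumors. The log2 fold change at 200 µg was −1.05 ± 0.34 (SE; limma, adjusted p = 0.107), and the trend was −0.51 ± 0.15 per 100 µg (SE; limma, adjusted p = 0.0567). Mvk, the kinase of mevalonate, had 9.09, 9.96 and 7.94 FPKM in untreated tumors and 8.53, 9.30 and 3.25 FPKM at 50 µg. It had 9.60, 6.33 and 6.74 FPKM at 100 µg, and 5.16, 5.66 and 4.39 FPKM at 200 µg. The 200 µg and untreated libraries were again apart.

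Fdps, which builds farnesyl units, averaged 28.0 ± 6.4 FPKM at 200 µg against 45.9 ± 6.0 FPKM in untreated tumors, and Lss averaged 4.69 ± 0.53 against 7.43 ± 0.78 FPKM (SD, n = 3 each). Of the 1453 exonic bases of Fdps, 1124 are shared with the annotated transcript gene Gm43738, and reads of the pair cannot be told apart. Not all enzymes were lower. Sqle had 29.6, 30.6 and 34.7 FPKM at 200 µg against 25.7, 29.3 and 22.1 FPKM in untreated tumors, and Sc5d had 7.004, 6.91 and 7.70 FPKM against 6.54, 5.41 and 5.49 FPKM. For both, the 200 µg libraries lay above the untreated ones, with log2 values of 0.29 ± 0.34 and 0.27 ± 0.20 (SE) that were not called. Hmgcs1, the enzyme with the sterol element printed above, had 22.1, 15.3 and 19.7 FPKM at 50 µg, 16.7, 11.6 and 30.4 FPKM at 100 µg and 18.2, 16.2 and 20.3 FPKM at 200 µg. These ranges overlapped that of the untreated tumors at each dose, and the log2 value at 200 µg was −0.04 ± 0.32 (SE).

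The enzymes with the largest changes in tumors against brain had no call with dose. Ebp had 20.2, 22.7 and 23.8 FPKM at 50 µg, 18.2, 14.1 and 14.7 FPKM at 100 µg, and 14.7, 12.3 and 18.9 FPKM at 200 µg, and the 100 and 200 µg values all lay below the untreated ones. Dhcr7 had 17.2, 12.03 and 6.54 FPKM at 50 µg, 6.77, 8.33 and 10.4 FPKM at 100 µg, and 7.28, 7.92 and 10.2 FPKM at 200 µg. Tm7sf2 ranged more widely, at 3.96, 7.59 and 2.52 FPKM at 50 µg, 12.9, 3.13 and 4.04 FPKM at 100 µg, and 1.40, 5.26 and 5.64 FPKM at 200 µg. At 100 µg replicate 2 had the lowest value of its group for 13 of the 17 sterol enzymes and for 26 of all 33 genes. Replicate 3 had the highest for 12 of the 17 and for 22 of the 33. The share over all genes tested was not taken, so these counts cannot be read as particular to the sterol enzymes. Idi1 had 20.2, 15.1 and 0 FPKM at 50 µg and 7.63, 0.0758 and 21.2 FPKM at 100 µg. Its values at or near 0 can be failed assemblies.

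The 4 regulators had fold changes below 0 at every dose, with none called, but the values at 50 µg rested on replicate 3. Their median there was −0.45 on the log2 scale with it and −0.11 without it, when Scap was at 0.00, Srebf1 at −0.03, Srebf2 at −0.19 and Insig1 at −0.32. At 100 µg the median was −0.37 with replicate 3 and −0.43 without it, when Srebf1 was at 0.28. At 200 µg their median log2 value was −0.70, beside 0.04 for all genes tested, and all 4 had 200 µg libraries below all untreated libraries, as did 17.0% of all genes tested. Srebf2 had 64.8, 59.0 and 57.8 FPKM in untreated tumors, 58.5, 47.5 and 18.4 FPKM at 50 µg, 44.2, 29.4 and 46.5 FPKM at 100 µg and 35.0, 31.7 and 44.6 FPKM at 200 µg, against 42.1, 45.5 and 26.8 FPKM in healthy brain. Untreated tumors stood above every other group but for the overlap with 50 µg replicate 1. Srebf2 rose in untreated tumors against brain by 0.69 ± 0.23 on the log2 scale (SE; limma, adjusted p = 0.0408), and its value at 200 µg was −0.70 ± 0.36 (SE; limma, adjusted p = 0.272).

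Scap had 28.0, 27.1 and 28.5 FPKM in untreated tumors, 29.7, 26.2 and 14.7 FPKM at 50 µg, 24.1, 20.4 and 22.0 FPKM at 100 µg, and 15.6, 17.5 and 15.3 FPKM at 200 µg, against 26.8, 23.5 and 15.7 FPKM in healthy brain. The untreated, 100 µg and 200 µg tumors were apart from one another in that order. Its log2 value was −0.75 ± 0.23 at 200 µg (SE; limma, adjusted p = 0.0949), and 785 of its 4227 exonic bases are shared with the annotated gene 5830462I19Rik. Insig1 had 28.6, 25.1 and 21.0 FPKM in untreated tumors, 17.2, 22.3 and 10.9 FPKM at 50 µg, 19.4, 14.2 and 21.7 FPKM at 100 µg and 16.0, 16.0 and 13.1 FPKM at 200 µg, against 27.6, 20.2 and 14.5 FPKM in healthy brain. Only the 200 µg libraries were all below the untreated ones, and the log2 value there was −0.69 ± 0.26 (SE; limma, adjusted p = 0.150).

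Srebf1 had 15.2, 17.1 and 22.0 FPKM in untreated tumors, 17.9, 17.0 and 9.44 FPKM at 50 µg, 24.2, 19.8 and 11.6 FPKM at 100 µg and 13.8, 12.2 and 13.0 FPKM at 200 µg, against 16.4, 16.0 and 8.16 FPKM in healthy brain. In 14 of the 15 libraries part or all of its value came from transcripts joined to the neighbor Rai1, so its level is uncertain. Neither Srebf1, Scap nor Insig1 was called in tumors against brain, where their log2 values were 0.44, 0.36 and 0.29.

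**Figure D3:**
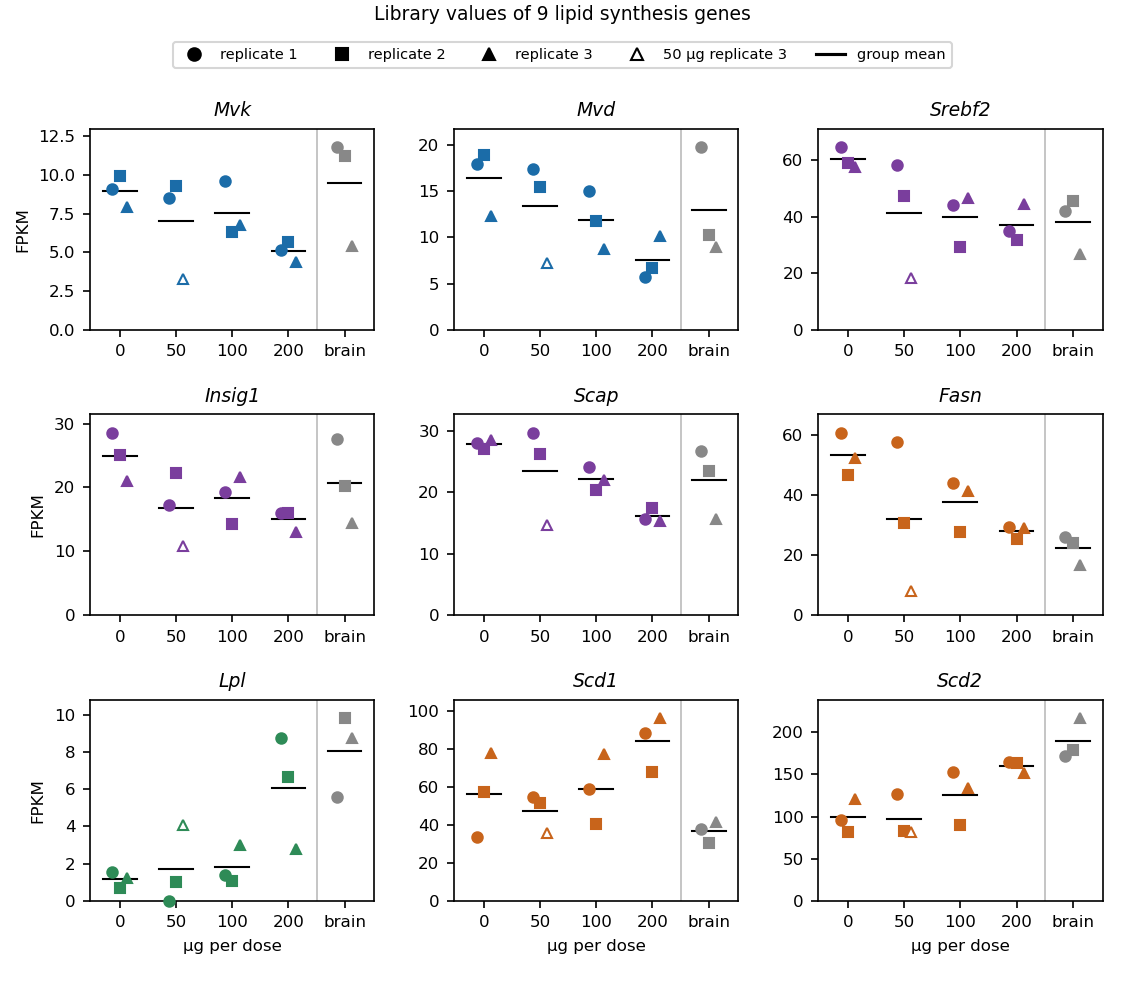
FPKM of 9 of the genes in each library (points, with a symbol for each replicate number) at 0, 50, 100 and 200 µg per dose and in healthy brain at the right of each panel. Black bars are group means and the open triangle is 50 µg replicate 3. Mvk, Mvd, Scap, Insig1, Srebf2 and Fasn lie lower at 200 µg than in untreated tumors, and Lpl and Scd2 lie higher.

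Genes of uptake, transfer and efflux gave the largest falls in tumors against brain. Lpl, the lipase that frees fatty acids from lipoproteins, had 1.54, 0.700 and 1.23 FPKM in untreated tumors and 5.58, 9.81 and 8.75 FPKM in healthy brain, a log2 fold change of −2.06 ± 0.26 (SE; limma, adjusted p = 0.000686). Abcg1, which exports sterols to lipoproteins, had 2.54, 1.18 and 2.26 FPKM in untreated tumors and 11.1, 11.1 and 8.08 FPKM in healthy brain, a log2 fold change of −1.91 ± 0.25 (SE; limma, adjusted p = 0.000751). For both genes the tumors lay far below brain. Stard4, a carrier of sterols between membranes, rose slightly, with 7.18, 7.22 and 6.44 FPKM in untreated tumors and 4.88, 4.85 and 5.02 FPKM in healthy brain, or 0.42 ± 0.14 on the log2 scale (SE; limma, adjusted p = 0.0363). Abca1, another sterol exporter, averaged 1.92 ± 0.53 and 2.68 ± 0.31 FPKM in these groups (SD, n = 3 each) and was not called.

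In treated tumors Lpl had 0, 1.00 and 4.07 FPKM at 50 µg, 1.38, 1.09 and 3.01 FPKM at 100 µg, and 8.77, 6.64 and 2.77 FPKM at 200 µg. The 200 µg libraries were all above the untreated ones and overlapped the brain range, and their mean was 5.25 times that of the untreated tumors. Its log2 value at 200 µg was 1.62 ± 0.54 (SE; limma, adjusted p = 0.117). Abcg1 had 1.42, 1.06 and 2.66 FPKM at 50 µg, 0.998, 1.91 and 1.32 FPKM at 100 µg and 1.49, 1.38 and 0.350 FPKM at 200 µg, and Stard4 had 7.02, 5.73 and 4.24, 3.90, 2.47 and 8.99, and 5.38, 5.43 and 7.42 FPKM at these doses. Both overlapped the untreated tumors at each dose, as did Abca1.

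Of the 8 fatty acid enzymes, 2 rose and 2 fell in untreated tumors against healthy brain, or 25% in each direction, beside 32.7% higher and 28.0% lower among all genes tested. Fasn, the fatty acid synthase, had 60.9, 46.9 and 52.4 FPKM in untreated tumors and 26.0, 24.3 and 16.7 FPKM in healthy brain, a log2 fold change of 1.24 ± 0.22 (SE; limma, adjusted p = 0.00311). Acly, which supplies cytosolic acetyl-CoA, had 45.2, 46.1 and 37.6 FPKM in untreated tumors and 27.0, 32.6 and 24.6 FPKM in healthy brain, or 0.60 ± 0.18 (SE; limma, adjusted p = 0.0257). For both genes the tumors lay above brain, and the desaturases Fads2 and Scd2 fell. Fads2 had 16.0, 16.8 and 15.9 FPKM in untreated tumors and 36.0, 41.2 and 34.7 FPKM in healthy brain, a log2 fold change of −1.15 ± 0.15 (SE; limma, adjusted p = 0.000718).

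Scd2, a desaturase that makes oleate, had the highest mean level of the 33 genes in all 5 groups. It had 96.4, 81.8 and 121 FPKM in untreated tumors and 172, 179 and 217 FPKM in healthy brain, a log2 fold change of −0.93 ± 0.20 (SE; limma, adjusted p = 0.00796). Its relative Scd1 lies close to it on mouse chromosome 19 (mm10, chr19:44394455-44407879 for Scd1 and chr19:44293674-44306864 for Scd2) and was not called, at 56.4 ± 22 FPKM in untreated tumors and 36.8 ± 5.6 FPKM in healthy brain (SD, n = 3 each). Scd1 made up 35.5 ± 8.3% of the summed level of the pair in untreated tumors and 16.3 ± 1.8% in healthy brain (SD, n = 3 each; two-sided exact permutation test p = 0.1, the smallest that 3 against 3 allows). The desaturases Fads1 and Fads2 are also neighbors on chromosome 19 (chr19:10182888-10196877 and chr19:10062765-10101746). Fads1 was not called, with a log2 value of −0.54 ± 0.34 (SE). Acaca, the carboxylase that commits acetyl-CoA to fatty acids, and the elongase Elovl6 were also not called, at 0.25 ± 0.17 and 0.18 ± 0.21 (SE).

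With dose, none of the 8 was called. At 200 µg their log2 values ran from −0.90 for Fasn up to 0.69 for Scd2, with 4 above and 4 below 0 and a median of 0.14 beside 0.04 for all genes tested. Scd2 had 127, 83.2 and 81.1 FPKM at 50 µg, 153, 89.6 and 134 FPKM at 100 µg, and 164, 164 and 152 FPKM at 200 µg. Every 200 µg library was above the untreated range and below the brain range, and the log2 value was 0.69 ± 0.25 (SE; limma, adjusted p = 0.140). Scd1 had 88.2, 67.7 and 96.2 FPKM at 200 µg against 33.8, 57.4 and 78.1 FPKM in untreated tumors, which overlap. Fasn had 57.7, 30.6 and 8.07 FPKM at 50 µg, 44.0, 27.9 and 41.5 FPKM at 100 µg, and 29.5, 25.6 and 29.0 FPKM at 200 µg. The 100 and 200 µg libraries were below the untreated ones, and 50 µg replicate 3 was the lowest of all 15 libraries. Its log2 value at 200 µg was −0.90 ± 0.52 (SE; limma, adjusted p = 0.322).

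Acly had 42.4, 30.1 and 18.0 FPKM at 50 µg, 40.5, 29.4 and 49.7 FPKM at 100 µg, and 42.3, 40.9 and 42.5 FPKM at 200 µg, overlapping the untreated tumors at each dose. Fads2 had 20.2, 18.0 and 8.39 FPKM at 50 µg, 34.7, 21.2 and 23.5 FPKM at 100 µg, and 28.3, 21.8 and 18.5 FPKM at 200 µg. Its 100 and 200 µg libraries were above the untreated ones. The log2 values of Acaca, Elovl6 and Fads1 at 200 µg were −0.10 ± 0.33, −0.29 ± 0.37 and 0.32 ± 0.30 (SE).

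Counted by libraries that do not overlap, 11 of the 33 genes were lower and 5 higher at 200 µg than in untreated tumors, or 33.3% and 15.2%, against 17.0% lower and 21.8% higher among all genes tested. The 11 were Mvk, Mvd, Fdps, Lss, Ebp, Dhcr7, Srebf1, Srebf2, Insig1, Scap and Fasn, and the 5 were Sqle, Sc5d, Lpl, Scd2 and Fads2. At 100 µg the count was 6 lower and 1 higher, against 7.07% and 7.51% of all genes, and at 50 µg it was 0, against 9.41% in either direction. Without replicate 3 of the dose, a choice made after seeing the data that leaves 2 libraries, the count at 100 µg was 17 lower and 1 higher, against 20.5% and 15.6% of all genes. At 50 µg it was then 1 lower (Pmvk) and 2 higher (Cyp51 and Fads2), against 9.64% and 6.06%.

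**Figure D4:**
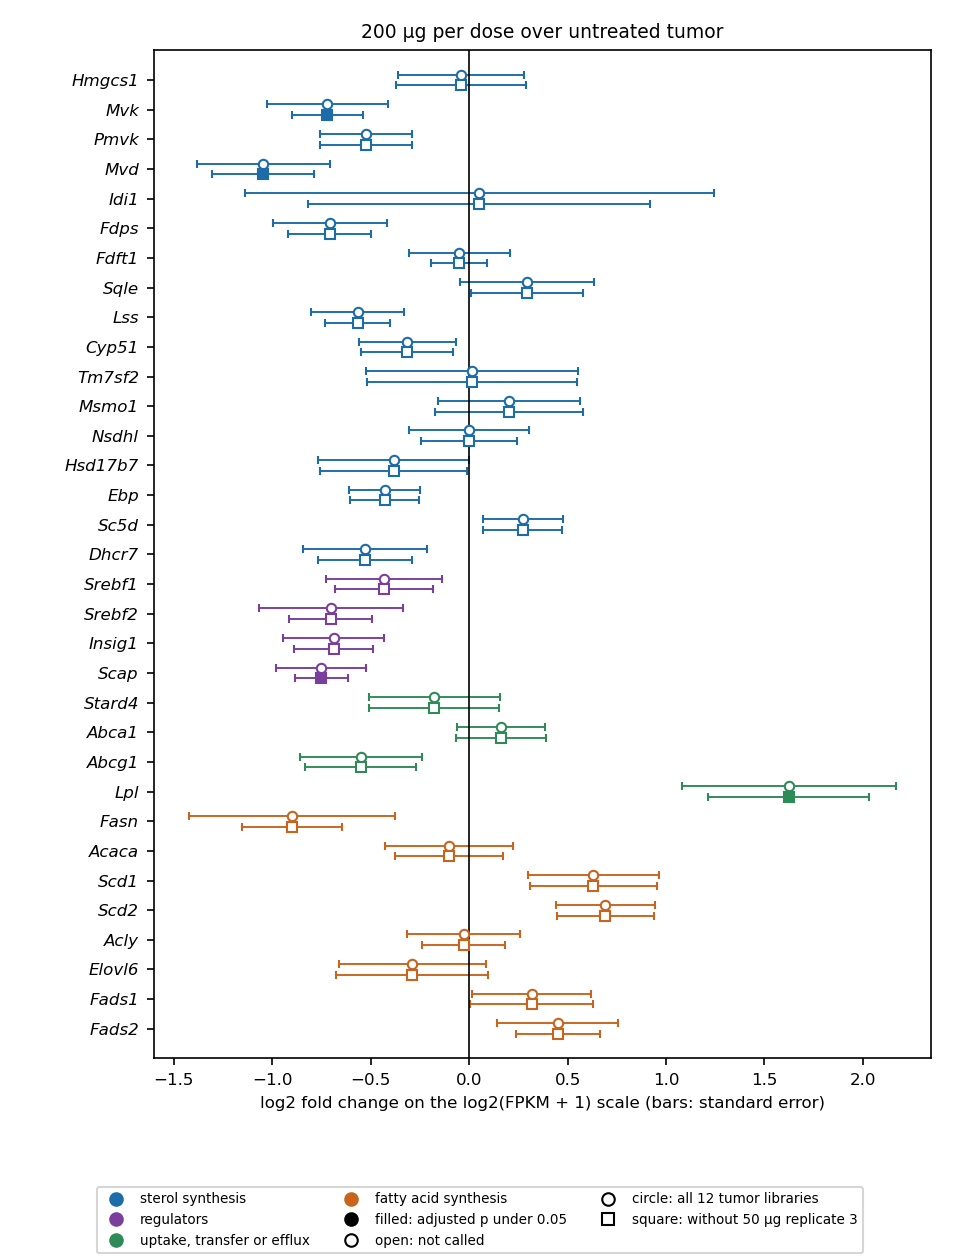
Log2 fold change of each gene at 200 µg over untreated tumor (x axis, log2(FPKM + 1) scale, bars are standard errors from limma), colored by role, from all 12 tumor libraries (circles) and without 50 µg replicate 3 (squares). No circle is filled, and the filled squares, at an adjusted p under 0.05, are Mvk, Mvd, Scap and Lpl.

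The dose calls depended on the library that stood apart. Without 50 µg replicate 3 the fold changes at 200 µg were the same, since that library is in neither group, but their standard errors were smaller (0.26 against 0.34 for Mvd) and 4 of the 33 genes were called there, with Mvk (−0.72), Mvd (−1.05) and Scap (−0.75) lower and Lpl (1.62) higher by limma (adjusted p = 0.0458, 0.0456, 0.0192 and 0.0471), against 6.80% of the 14589 genes tested. For the trend 10 of the 33 were then called, against 13.8% of all genes. Mvk, Mvd, Fdps, Lss, Srebf2, Insig1, Scap and Fasn were lower with dose, and Lpl and Scd2 were higher. Leaving out 100 µg replicate 3 as well, a choice made after seeing the data, gave 9 calls at 200 µg, 8 lower and 1 higher, against 6.87% lower and 9.26% higher among all genes tested.

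Other measures moved with dose beside these values. The share of coding genes listed in pieces was 0.322 to 0.378% at 200 µg and 0.233% in 100 µg replicate 3, against 0.728 to 0.900% in untreated tumors. With a term for these 4 libraries with few pieces, none of the 33 was called at 200 µg by limma, and the log2 values were −0.49 for Mvd, −0.74 for Scap, 0.78 for Lpl and 0.50 for Scd2. The term covers all 200 µg libraries, so only 100 µg replicate 3 against the other 100 µg libraries separates it from that dose. The fit therefore cannot tell few pieces from dose. The summed level of 10 oligodendrocyte markers was 87.0 to 87.7 FPKM at 200 µg, against 124 to 225 FPKM in untreated tumors and 891 to 959 FPKM in healthy brain. Of its 8 markers tested, Mag and Cldn11 fell at 200 µg, and Ermn was listed at 0 in every untreated tumor. Of 6 astrocyte markers only 2 could be tested with dose, of which Slc1a3 rose at 200 µg, and Gjb6 was listed at 0 in all tumor libraries. The astrocyte markers summed to 75.0 to 109 FPKM at 200 µg against 36.8 to 54.4 FPKM in untreated tumors. The microglia markers summed to 28.0 to 36.4 FPKM at 200 µg against 84.2 to 189 FPKM in untreated tumors, and of 4 tested Tmem119 fell, by 3.92 on the log2 scale (limma, adjusted p = 0.00912). The 6 neuron markers summed to 5.84 to 7.35 FPKM at 200 µg against 10.1 to 17.8 FPKM in untreated tumors. The 5 endothelial markers summed to 24.2 to 49.4 FPKM against 43.7 to 67.7 FPKM. None of the 4 neuron markers tested or of the 5 endothelial markers was called. At an unadjusted p under 0.05 by limma, 3 and 2 of them were lower, beside 9.87% of all genes tested. The 6 macrophage markers summed to 454 to 863 FPKM at 200 µg against 421 to 679 FPKM in untreated tumors, with none called. The part of these measures in the lipid gene values was not tested.

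The other genes of the pathways were read from a list of 36, with 18 on the sterol side and 18 on the fatty acid side. In untreated tumors against healthy brain 8 sterol-side genes rose and 3 fell of 18 tested, and 3 fatty acid-side genes rose and 5 fell of 16 tested, beside 32.7% and 28.0% of all genes. The largest rise on the sterol side was Ch25h, a cholesterol hydroxylase, with 5.99, 2.58 and 3.21 FPKM in untreated tumors and 0, 0 and 0.337 FPKM in healthy brain. The largest fall was Cyp46a1, the neuronal enzyme that hydroxylates cholesterol for export from brain, with 1.24, 0.658 and 0.366 FPKM in untreated tumors and 90.0, 104 and 77.5 FPKM in healthy brain. Its log2 fold change was −5.73 ± 0.23 (SE; limma, adjusted p = 1.40e-05), beside the loss of neuron markers given above. On the fatty acid side the largest rise was Elovl1, an elongase of very long chains, at 37.3 ± 3.1 and 4.90 ± 1.9 FPKM (SD, n = 3 each). The largest fall was Acss2, which makes acetyl-CoA from acetate. It had 0.0321, 3.24 and 2.12 FPKM in untreated tumors and 12.3, 7.71 and 9.59 FPKM in healthy brain. The Acss2 value near 0 can be a failed assembly, and the call was lost with a pseudocount of 0.1 FPKM.

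With dose, 2 of the 33 other genes tested were called at 200 µg, Vldlr and Me1, beside 2.83% of all genes tested. Without 50 µg replicate 3 Elovl5 was called there too (limma, adjusted p = 0.0396), and Mylip and Hsd17b12 were added to the trend calls (0.0398 and 0.0481). Vldlr, a lipoprotein receptor, had 3.70, 4.80 and 4.12 FPKM in untreated tumors, 4.39, 8.42 and 5.87 FPKM at 50 µg, 8.20, 8.26 and 13.1 FPKM at 100 µg, and 13.6, 12.9 and 14.8 FPKM at 200 µg, against 6.65, 8.82 and 9.93 FPKM in healthy brain. It rose at 200 µg by 1.51 ± 0.24 on the log2 scale (SE; limma, adjusted p = 0.0172), and the 200 µg libraries lay above all others but 100 µg replicate 3, which was among them. Me1, the malic enzyme that makes NADPH used in lipid synthesis, had 12.9, 11.4 and 9.23 FPKM in untreated tumors, 12.9, 11.4 and 19.6 FPKM at 50 µg, 16.9, 14.5 and 20.4 FPKM at 100 µg, and 35.8, 30.2 and 21.8 FPKM at 200 µg. It rose at 200 µg by 1.30 ± 0.25 (SE; limma, adjusted p = 0.0294). Both also rose in the trend, as did Elovl5, an elongase of polyunsaturated chains, by 0.53 ± 0.11 per 100 µg (SE; limma, adjusted p = 0.0166). The 200 µg calls of Vldlr and Me1 were lost in 7 and 9 of 27 alternatives. For both these were grouping by the agent tag, the plain FPKM sum, the term for libraries with few pieces, and leaving out untreated replicate 1 or 3 or 200 µg replicate 1 or 2, and for Me1 also the replicate block and leaving out untreated replicate 2. The term for few pieces covers all 200 µg libraries, so a call lost with it does not tell few pieces from dose. All 3 trend calls were lost on grouping by the agent tag and with the term for few pieces. Those of Vldlr and Me1 were also lost with the plain FPKM sum, that of Me1 without 200 µg replicate 1, and that of Elovl5 without 200 µg replicate 1 or 2 or without the 4 libraries whose tag disagrees with the title.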

How the data were processed

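RNA-seq libraries of 3 samples in each of 5 groups were analysed, grouped by title. Reads were aligned with STAR to mm10 and transcripts assembled and quantified with Cufflinks, per the submitters' processing notes, and versions and parameters are not given in the sources used here. For each library the authors deposited assembled transcripts with an FPKM value each (fragments per kilobase, scaled to library size), with no gene names. Each assembly was made apart, so sparse genes were listed in pieces and touching neighbors as a single transcript, and strand was ignored.

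Here the level of a gene was the sum, over transcripts on its exons in the GENCODE M21 basic annotation (bedtools 2.31.1), of FPKM times the share of its exonic length covered, leaving out single-exon transcripts under 200 bp. Tests used limma 3.58.1 in R 4.3.3 on log2(FPKM + 1), a scale that understates changes of low genes, with trend and robust off, for genes with a mean of at least 1 FPKM, and p-values adjusted by the Benjamini-Hochberg method over all genes. Untreated tumor and brain were compared over 6 libraries. Each dose, the mean of the 3 doses and any difference among doses came from a fit of the 12 tumor libraries, and the trend from its own fit, 7 comparisons in all. The method was tested on simulated data.

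All 33 members are accounted for. Every library value is given for the 2 largest rises and falls called against brain in each role, for Srebf1, Srebf2 and Insig1, and for the smallest p at 200 µg in each role, and some others were added after their values were seen. The members and lists were chosen with earlier results of these data known. The labels do not say whether the libraries of a group came from separate animals, so the spread behind each p-value may be technical. Read counts and depths were not used here, as none are given with the transcripts. Alternatives covered pseudocounts, filters, the plain FPKM sum, scalings, grouping, a replicate block and leaving out libraries.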

Additional observations from a re-analysis of the deposited data

How the results depend on the processing

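No called result changed direction in the alternatives run. Against brain the 20 called members became 8 (2 higher, 6 lower) with a plain sum of FPKM, 14 to 17 on leaving out each library, and 14 to 21 in the other settings. The 8 were Ebp and Dhcr7, higher, and Hmgcs1, Pmvk, Fdft1, Tm7sf2, Lpl and Scd2, lower. For the dose trend, with 0 members called, the count was 3 with a pseudocount of 5 FPKM, 2 with a minimum mean of 5 FPKM, 2 with median-of-ratios scaling, 3 with quantile scaling and 1 with limma's trend and robust options on. Without the 4 libraries whose agent tag disagrees with the title it was 3, with 2 members at 200 µg and 2 among the doses. On leaving out each library in turn the trend held 0 to 10 calls, the highest without 50 µg replicate 3 and 1 without 100 µg replicate 2, and 200 µg held 0 to 4. At 50 µg, at 100 µg and in the mean of the doses the count was 0 in every alternative. Leaving out 50 and 100 µg replicate 3 together, chosen after seeing the data, gave 9 members at 200 µg, 3 among the doses and 9 in the trend. Exons of the full annotation, also added then, gave 18 against brain. The causes were not tested.

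Among tumor libraries, those of the same replicate number were about as alike as others. Deviations from group means correlated at −0.0794 to 0.103 between libraries of the same number and at −0.202 to 0.195 between others. Brain libraries were not in this check, which cannot show whether samples were paired. With a replicate block 15 members were called against brain, without Msmo1, Hsd17b7, Srebf2, Stard4 and Acly, and 0 in each dose comparison.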
